A study of Mus musculus with 6 samples.

Results

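Genes of bile acid synthesis, transport and control by the bile acid receptor FXR were followed on mouse Clariom S arrays of AAV-PIK3CD and AAV-control samples. They were taken by gene symbol as *Cyp7a1*, *Cyp8b1*, *Cyp27a1*, *Cyp7b1*, *Baat*, *Slc10a1*, *Slco1a1*, *Abcb11*, *Nr1h4* and *Nr0b2*, which are 10 of the 19505 genes with a symbol on the array, and each was read by 1 probe set of 22206. The AAV-PIK3CD group (arrays 51, 52 and 53) came from mice given an adeno-associated virus vector of serotype 8 for mouse *Pik3cd*, which encodes PI3K delta, driven by the liver-specific TBG promoter. The AAV-control group (arrays 48, 49 and 50) came from mice given a vector that the labels call empty and that the animal methods describe as TBG-EGFP. If the control vector carried EGFP, the groups differ in EGFP as well as in *Pik3cd*. All mice were male C57BL/6, injected at 8 weeks of age and killed at 12 weeks, and the route is given both as the portal and as the tail vein. The labels name the tissue as tumor and mention cultured cells at extraction, whereas the animal methods describe frozen liver. The labels give 3 samples per group and the methods call them individual samples, so that each array was taken as 1 replicate, although nothing says that each came from a mouse of its own.

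Bile acids are made from cholesterol in hepatocytes. CYP7A1 starts the main, neutral route and sets its pace, CYP8B1 adds the hydroxyl group that turns the product into cholic acid, and CYP27A1 and CYP7B1 carry the alternative, acidic route. BAAT then joins the acids to taurine or glycine. NTCP (*Slc10a1*) and OATP1A1 (*Slco1a1*) take bile acids and other organic anions up from portal blood, and BSEP (*Abcb11*) pumps bile salts into the canaliculus. FXR (*Nr1h4*) is the nuclear receptor that bile acids activate, and it induces BSEP and the corepressor SHP (*Nr0b2*). SHP in turn lowers transcription of *Cyp7a1* and *Cyp8b1*, which closes a feedback loop on synthesis.

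The arrays were alike in distribution, with medians between 4.81 and 4.87 (log2, RMA, the unit of every level below), and no depth exists for arrays, whose number limits the precision. *Pik3cd* read 4.78, 5.14 and 4.86 in the AAV-PIK3CD arrays, against 4.66, 4.34 and 4.48 in the AAV-control arrays. The groups did not overlap, as was so for 9.44% of all probe sets. The difference of 0.43 (SE 0.14) gave adjusted p-values over all probe sets of 0.673 (rank products) and 0.932 (limma). The 2-sided exact permutation test over the 6 arrays gave p = 0.1, the smallest that 3 against 3 allows. The mean of *Pik3cd* was 4.93 in AAV-PIK3CD and 4.49 in AAV-control, beside a mean array median of 4.83. Where its probes fall on the transcript is not given in the sources used here. All 10 measured hepatocyte markers exceeded the array median, with the mean of the list between 12.53 and 12.57 in AAV-PIK3CD and between 12.51 and 12.57 in AAV-control. Of 7 measured bile duct markers 2 lay above that median. Array 51 stood apart by its pancreatic acinar markers. All 9 that were measured were highest there, and their mean level was 8.47 in array 51, against 4.32 in array 52, 4.19 in array 53 and 4.11 to 4.35 in AAV-control. The summed level of these 9 markers ranged from 37.75 to 76.22 in AAV-PIK3CD and from 37.01 to 39.15 in AAV-control. Of 8 skeletal muscle markers 7 were also highest in array 51. The part of this material in the levels of the bile acid genes was not tested. Without array 51 the difference of the 10 genes ran from -0.71, for *Cyp7a1*, to 0.11, for *Abcb11*. It is given below for some of the other genes that this array moved. In bulk RNA a lower level in each hepatocyte and fewer hepatocytes cannot be told apart.

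The question was whether giving the vector for this PI3K subunit was accompanied by other levels of the bile acid genes. Of the 10 genes, 0 passed rank products and 0 passed limma at an adjusted p of 0.05 over all probe sets. By the same rules 0.0405% of all probe sets passed rank products (9 of 22206, namely 0.0045% higher and 0.036% lower) and 0% passed limma. At an unadjusted p under 0.05 there were 2 of the 10 by rank products, against 5.7% of all probe sets, and 1 by limma, against 5.08%. The 2 were *Cyp7a1* and *Nr0b2*, and *Nr0b2* was the 1 by limma. The mean was higher in AAV-PIK3CD for 4 of the 10 genes and lower for 6. The median difference of the 10, AAV-PIK3CD minus AAV-control, was -0.03, beside -0.01 for all probe sets, and the median size of the difference was 0.05, beside 0.10 for all probe sets. Thus most of these genes differed by little on the log2 scale, and *Cyp7a1* and *Nr0b2* stood at the 98.6 and 97.5 percentile of all probe sets in the size of their difference. The hepatocyte markers, also read above the array median, had a median size of 0.04. A small size was thus not particular to the bile acid genes. With 3 arrays per group the 95% limma intervals stayed wide, and among the 10 they reached down to -0.94, for *Cyp7a1*, and up to 0.44, for *Cyp8b1*.

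**Figure D1:**
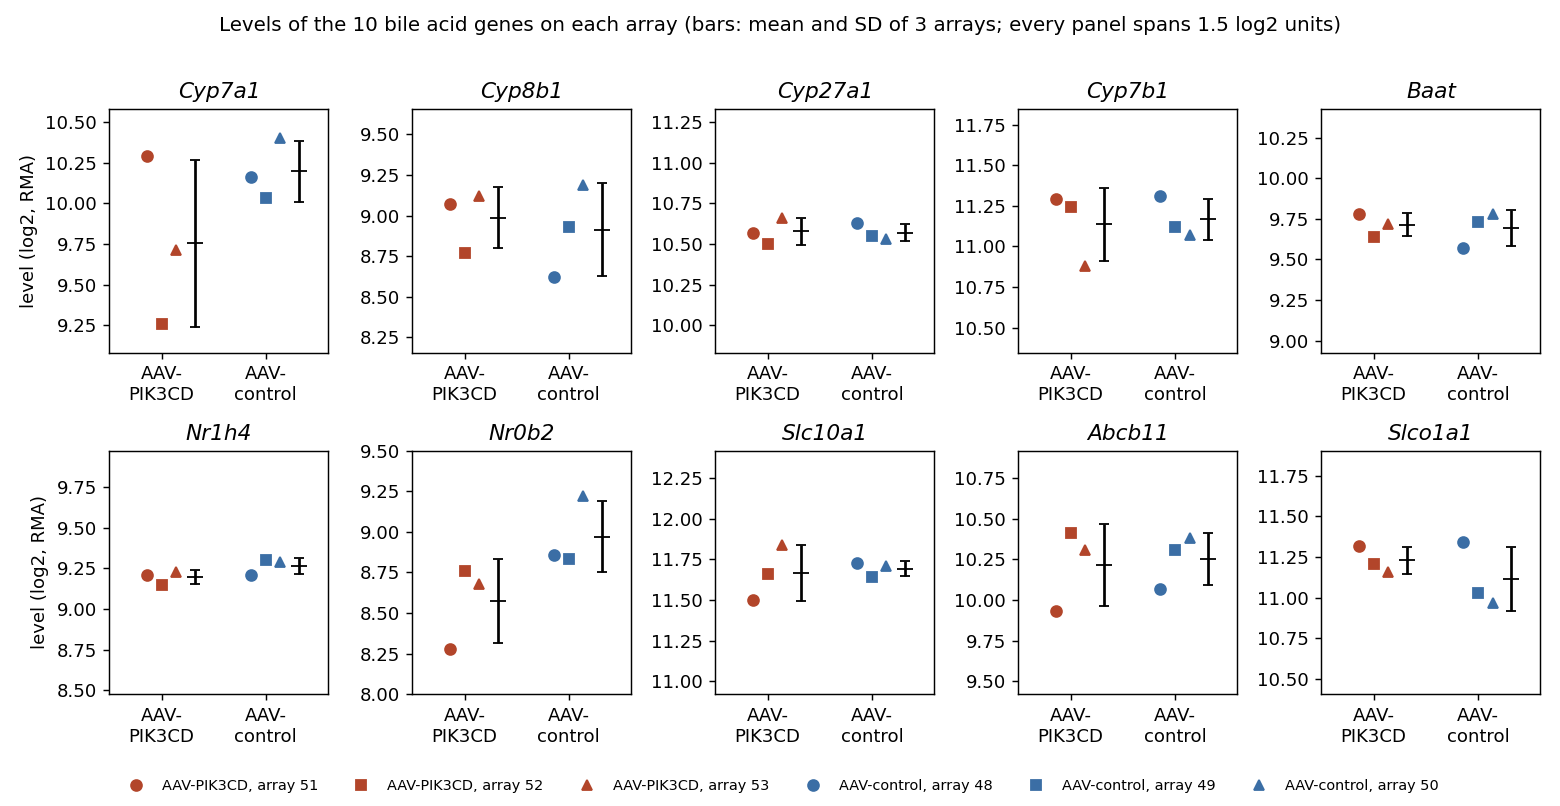
Level of each of the 10 genes (log2, RMA) on the 3 AAV-PIK3CD arrays (red, left) and the 3 AAV-control arrays (blue, right); symbols are single arrays, bars show the mean and SD (n = 3), and every panel spans 1.5 log2 units. *Cyp7a1* was spread widely in AAV-PIK3CD, from 9.26 to 10.29, and *Nr0b2* was the gene whose groups did not overlap.

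*Cyp7a1*, the gene of the rate-limiting enzyme, read 10.29, 9.26 and 9.71 in AAV-PIK3CD arrays 51, 52 and 53, against 10.16, 10.03 and 10.40 in AAV-control arrays 48, 49 and 50. Arrays 52 and 53 lay below every control and array 51 lay within the controls, so that the groups overlapped. The means were 9.75 ± 0.52 in AAV-PIK3CD and 10.20 ± 0.19 in AAV-control (SD, n = 3 each). AAV-PIK3CD thus stood at 73.5% of the control level, with a difference of -0.44 (SE 0.22). Rank products gave it an adjusted p of 0.538 and limma one of 0.932, and the 95% limma interval ran from -0.94 to 0.05. The 2-sided exact permutation test over the 6 arrays gave p = 0.3, where 0.1 is the smallest that 3 against 3 allows. The size of the difference rested on single arrays. It was -0.20 without array 52 and -0.71 without array 51, the array with acinar transcripts. Without array 51 the 2 remaining AAV-PIK3CD values lay below all 3 controls, and the adjusted p by rank products was 0.0912. That omission also gave the most rank products calls over all probe sets, 17. There were 9 with all arrays and 3 to 6 when another array was omitted.

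The other 4 genes of synthesis differed by less than 0.1 log2 units. *Cyp8b1*, which directs synthesis towards cholic acid, read 9.07, 8.77 and 9.12 in AAV-PIK3CD and 8.62, 8.93 and 9.19 in AAV-control. Both the lowest and the highest value were controls, and the difference was 0.07 (SE 0.16, 95% interval -0.29 to 0.44). *Cyp27a1*, the mitochondrial enzyme of the acidic route, read 10.57, 10.50 and 10.66 in AAV-PIK3CD and 10.63, 10.55 and 10.53 in AAV-control. Its difference of 0.01 (SE 0.12) had an interval of -0.25 to 0.26. All 6 arrays lay within 0.16 log2 units of each other for this gene. *Cyp7b1*, the hydroxylase that follows it in the acidic route, read 11.29, 11.24 and 10.88 in AAV-PIK3CD and 11.31, 11.12 and 11.07 in AAV-control. Array 53 was the lowest of the 6 and array 48 the highest, and the difference was -0.03 (SE 0.14, interval -0.35 to 0.29). *Baat*, the conjugating enzyme, read 9.78, 9.64 and 9.72 in AAV-PIK3CD and 9.57, 9.73 and 9.78 in AAV-control, a difference of 0.02 (SE 0.12, interval -0.24 to 0.28). For all 4 genes the groups overlapped. Rank products gave each an adjusted p of 1.0, and limma gave 0.976 to 0.995.

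*Slc10a1*, the sodium-dependent uptake carrier, read 11.50, 11.66 and 11.84 in AAV-PIK3CD and 11.73, 11.64 and 11.71 in AAV-control. The AAV-PIK3CD arrays held both the lowest and the highest value, with an SD of 0.17 against 0.05 in AAV-control, and the means differed by -0.03 (SE 0.13, interval -0.31 to 0.25). *Slco1a1*, the sodium-independent carrier, read 11.32, 11.21 and 11.16 in AAV-PIK3CD and 11.34, 11.03 and 10.97 in AAV-control. Its difference of 0.12 (SE 0.13, interval -0.18 to 0.41) was the highest of the 10. The AAV-PIK3CD values lay above controls 49 and 50 and below control 48, and without array 48 the difference was 0.23. *Abcb11*, the export pump, read 9.93, 10.41 and 10.31 in AAV-PIK3CD and 10.07, 10.31 and 10.38 in AAV-control. The lowest and the highest array were both AAV-PIK3CD, and the difference of -0.04 (SE 0.15, interval -0.38 to 0.30) was 0.11 without array 51. For each of the 3 transporters rank products gave an adjusted p of 1.0, and limma gave 0.955 to 0.985.

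*Nr1h4*, the FXR gene itself, was the steadiest of the 10. It read 9.21, 9.15 and 9.23 in AAV-PIK3CD and 9.21, 9.30 and 9.29 in AAV-control, a difference of -0.07 (SE 0.11, interval -0.32 to 0.18). Array 51 equalled the lowest control and array 53 lay above it, so that the groups overlapped, and the adjusted p was 1.0 with rank products and 0.969 with limma. Its spread within groups, 0.05, was at the 1.2 percentile of all probe sets.

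*Nr0b2*, the gene of the corepressor SHP, read 8.28, 8.76 and 8.68 in AAV-PIK3CD arrays 51, 52 and 53, against 8.86, 8.83 and 9.22 in AAV-control arrays 48, 49 and 50. All 3 AAV-PIK3CD values lay below all 3 controls, with array 52 only narrowly so. The means were 8.57 ± 0.26 in AAV-PIK3CD and 8.97 ± 0.22 in AAV-control (SD, n = 3 each). AAV-PIK3CD thus stood at 76.0% of the control level, with a difference of -0.40 (SE 0.16, interval -0.76 to -0.04). Rank products gave it an adjusted p of 0.834 and limma one of 0.932, and the 2-sided exact permutation test gave its smallest p, 0.1. It was the 1 of the 10 genes without overlap. Over all probe sets the groups did not overlap in 9.44%, with AAV-PIK3CD higher in 4.47% and lower in 4.97%. Array 51 was the lowest and array 50 the highest of the 6. The difference was -0.25 without array 51 and -0.27 without array 50.

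*Cyp7a1* and *Nr0b2* had their difference in the same direction, but not by the same arrays. Array 51 held the lowest *Nr0b2* value and a *Cyp7a1* value above all but 1 of the other arrays. Array 52 held the lowest *Cyp7a1* value and the highest *Nr0b2* value of the AAV-PIK3CD group. Array 50 was highest for both. *Cyp8b1*, the other target that SHP is known to repress, was also highest in array 50, and lowest in array 48.

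**Figure D2:**
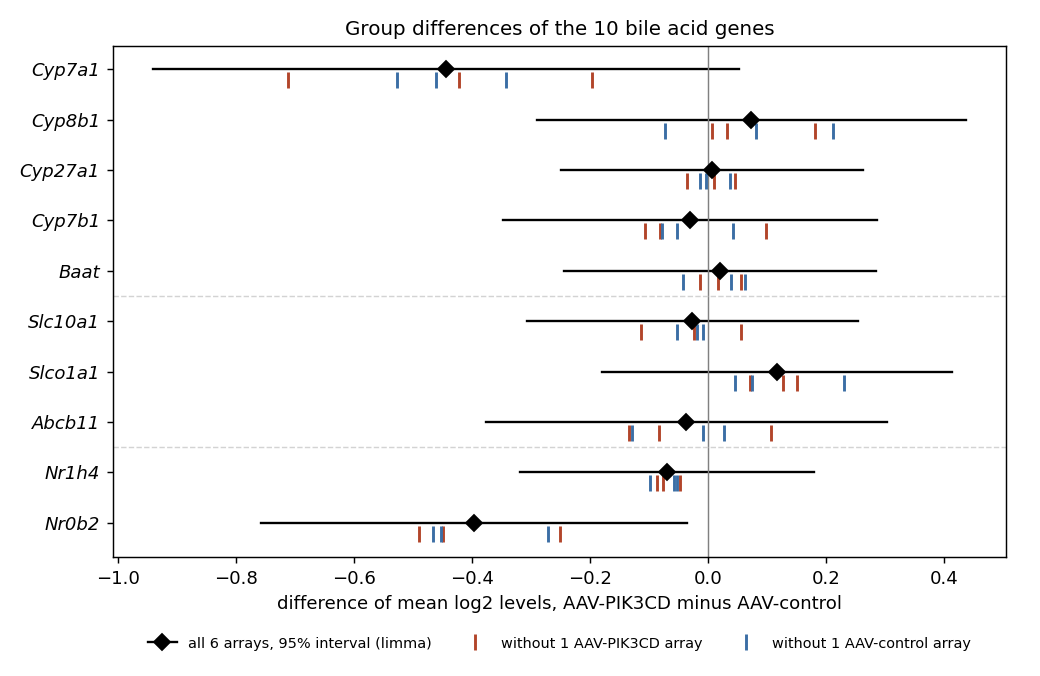
Difference of mean log2 levels, AAV-PIK3CD minus AAV-control, for each of the 10 genes (diamonds, with 95% limma intervals), and the same difference with 1 array left out (ticks: red for an AAV-PIK3CD array, blue for an AAV-control array); dashed lines part synthesis, transport and control. *Cyp7a1* (-0.20 to -0.71) and *Nr0b2* (-0.25 to -0.49) kept a negative difference with every array left out, and the interval of *Nr0b2*, not adjusted for the number of genes, is the 1 that does not reach 0.

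Among the 10, *Nr0b2* and *Abcb11* are genes that FXR is known to induce, yet their groups stood differently, apart for *Nr0b2* and mixed for *Abcb11*; the difference between these genes was not tested. Their promoter windows are printed to set the known inputs beside these levels. RefSeq (GRCm38.p6) gave a window of 300 bases, 250 before the start site and 50 after it, for 7 of the 10 genes. *Abcb11* is shown as chr2:69342567-69342866 (minus strand) and *Nr0b2* as chr4:133553126-133553425 (plus strand), each 5′ to 3′ in the direction of its gene.
Abcb11: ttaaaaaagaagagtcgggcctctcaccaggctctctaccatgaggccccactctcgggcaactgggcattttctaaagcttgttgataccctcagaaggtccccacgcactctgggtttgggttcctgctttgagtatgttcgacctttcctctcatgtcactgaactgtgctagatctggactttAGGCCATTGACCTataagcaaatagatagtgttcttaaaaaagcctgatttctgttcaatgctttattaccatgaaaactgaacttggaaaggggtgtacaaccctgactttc
Nr0b2: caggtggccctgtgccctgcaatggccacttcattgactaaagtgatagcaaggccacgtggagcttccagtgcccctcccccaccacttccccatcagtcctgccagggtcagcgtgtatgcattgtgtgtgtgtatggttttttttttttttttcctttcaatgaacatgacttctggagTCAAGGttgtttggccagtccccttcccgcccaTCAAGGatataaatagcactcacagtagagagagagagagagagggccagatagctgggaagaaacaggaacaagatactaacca
Capitals mark matches on either strand to 2 motifs. The inverted repeat that FXR binds with RXR was searched as AGGTCA and TGACCT parted by any 1 base, with at most 1 mismatch, and the core of elements for LRH-1 (*Nr5a2*), a receptor that drives *Nr0b2* and *Cyp7a1*, as TCAAGG without mismatch. *Abcb11* held the inverted repeat at -63 to -51 from the start site, with 1 mismatch, and it was the only gene with it among the 7; 0.0822% of all 32851 promoter windows held it. *Nr0b2* held TCAAGG at -68 to -63 and at -35 to -30, again as the only one of the 7, where 14.4% of all windows held it. A direct repeat of the kind HNF4 binds, AGGTCA and AGGTCA parted by any 1 base, with at most 1 mismatch, was found in the *Slco1a1* window at -134 to -122 on the opposite strand (window not shown) and in 0.554% of all windows. The motifs do not overlap in these windows. A match is a stretch of letters and not a measured site, and its absence from a window of this length says nothing about the factor.

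The rest of the pathway was read from a list of 54 further genes, of which 52 were measured: 14 of synthesis, 18 of transport and 20 of control. By rank products 0 of the 52 passed in either direction, and by limma 0 passed; before adjustment, rank products put 3 under 0.05 (*Dbp*, *Osgin1* and *Ppargc1a*) and limma put 2 there (*Osgin1* and *Ppargc1a*), beside 5.7% and 5.08% of all probe sets. The median difference was 0.01 for synthesis, -0.03 for transport and -0.03 for control, beside -0.01 for all probe sets. The groups did not overlap for 3 of the 52 genes, 1 higher and 2 lower, all of them among the control genes, beside 9.44% of all probe sets.

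In synthesis the 14 differences lay between -0.16 and 0.17, with 7 means higher and 7 lower. The largest was that of *Acox2*, the peroxisomal oxidase that shortens the bile acid side chain, at 0.17 (SE 0.14), and it was 0.08 without array 51. *Cyp39a1*, a hydroxylase of oxysterols, differed by -0.16 (SE 0.17), by -0.03 without array 51 and by -0.315 without array 48. *Hsd3b7*, the enzyme that follows CYP7A1, differed by 0.09 (SE 0.14), with 0.02 to 0.22 when 1 array was omitted. *Hsd17b4*, another peroxisomal enzyme of side chain shortening, differed by 0.08 (SE 0.12) and by 0.025 without array 51. None of the 14 differed by as much as *Cyp7a1*, and the groups overlapped for each. *Cyp2c70*, the mouse enzyme that makes muricholic acids, differed by -0.07 (SE 0.13) and *Slc27a5*, which activates bile acids for BAAT, by 0.05 (SE 0.115).

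In transport the 18 differences lay between -0.25 and 0.17, with 7 means higher and 11 lower. *Slc10a2*, the apical carrier of ileum and bile ducts, read 7.18, 7.75 and 7.90 in AAV-PIK3CD and 8.09, 8.0 and 7.50 in AAV-control, a difference of -0.25 (SE 0.21) that was -0.04 without array 51. *Abcb4*, the phospholipid flippase of the canaliculus and a gene that FXR is known to induce, read 10.17, 10.21 and 10.03 in AAV-PIK3CD and 9.91, 10.03 and 9.96 in AAV-control, a difference of 0.17 (SE 0.12). Array 53 equalled the highest control. *Slco2b1*, another organic anion carrier, differed by -0.15 (SE 0.15), which was -0.04 without array 50 and -0.045 without array 51. *Slc51b*, a subunit of the basolateral exporter that FXR is known to induce, had low levels, a mean of 4.52 in AAV-PIK3CD and 4.65 in AAV-control, both below the median of the arrays, and differed by -0.13 (SE 0.25), or by 0.05 without array 51. The groups overlapped for each of the 18. The canalicular exporter *Abcc2* (-0.03, SE 0.12) and the sinusoidal carrier *Slco1b2* (-0.04, SE 0.12) differed by less than their SE.

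The 20 control genes had the widest range of differences of the 3 roles, -0.62 to 0.37. *Osgin1*, an oxidative stress gene that FXR induces and that NRF2 induces as well, read 8.47, 8.50 and 8.35 in AAV-PIK3CD and 8.77, 8.91 and 8.99 in AAV-control. The groups were well apart, and the difference of -0.45 (SE 0.12, interval -0.72 to -0.18) stayed between -0.51 and -0.40 whichever array was left out. Rank products gave it an adjusted p of 0.707 and limma one of 0.932. *Ppargc1a*, the fasting-induced coactivator PGC-1alpha, read 6.14, 6.17 and 6.25 in AAV-PIK3CD and 5.56, 5.88 and 6.01 in AAV-control. Its groups were apart in the other direction, with a difference of 0.37 (SE 0.14, interval 0.06 to 0.68) and adjusted p-values of 0.834 (rank products) and 0.932 (limma). *Foxa2*, a forkhead factor of hepatocytes, read lower without overlap too and differed by -0.25 (SE 0.12, adjusted p 0.965 by rank products). *Dbp*, a clock-driven factor that is known to activate *Cyp7a1*, read 6.44, 7.65 and 8.14 in AAV-PIK3CD and 8.51, 8.16 and 7.43 in AAV-control. It had the largest difference of the 52, -0.62 (SE 0.38), with an adjusted p of 0.259 by rank products, but its groups overlapped and the difference was -0.14 without array 51. Array 51 was the lowest for *Dbp* and array 52 for *Cyp7a1*, and a link between the levels of these genes was not tested.

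*Fgf15*, the intestinal hormone of the same feedback, differed by 0.25 (SE 0.21) around a mean of 4.86 in AAV-PIK3CD and 4.60 in AAV-control, near the median of the arrays. Its difference was 0.06 without array 50, 0.12 without array 51 and 0.47 without array 53. Of the receptors and partners, *Nr5a2* differed by -0.10 (SE 0.13), *Hnf4a*, which activates *Cyp7a1* and *Cyp8b1*, by -0.16 (SE 0.14), and *Rxra*, the partner of FXR, by -0.09 (SE 0.13). The difference of *Hnf4a* ran from -0.25 without array 51 to -0.08 without array 53. *Mafg*, a repressor of *Cyp8b1* that FXR induces, differed by 0.00 (SE 0.17), and *Insig2*, a further FXR target, by 0.09 (SE 0.12). *Cyp2c70*, *Slc27a5*, *Abcc2*, *Slco1b2*, *Nr5a2*, *Hnf4a*, *Rxra*, *Mafg* and *Insig2* were named for their place in the pathway after their values had been seen. *Foxa2* was named, also after its values had been seen, because its groups did not overlap.

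**Figure D3:**
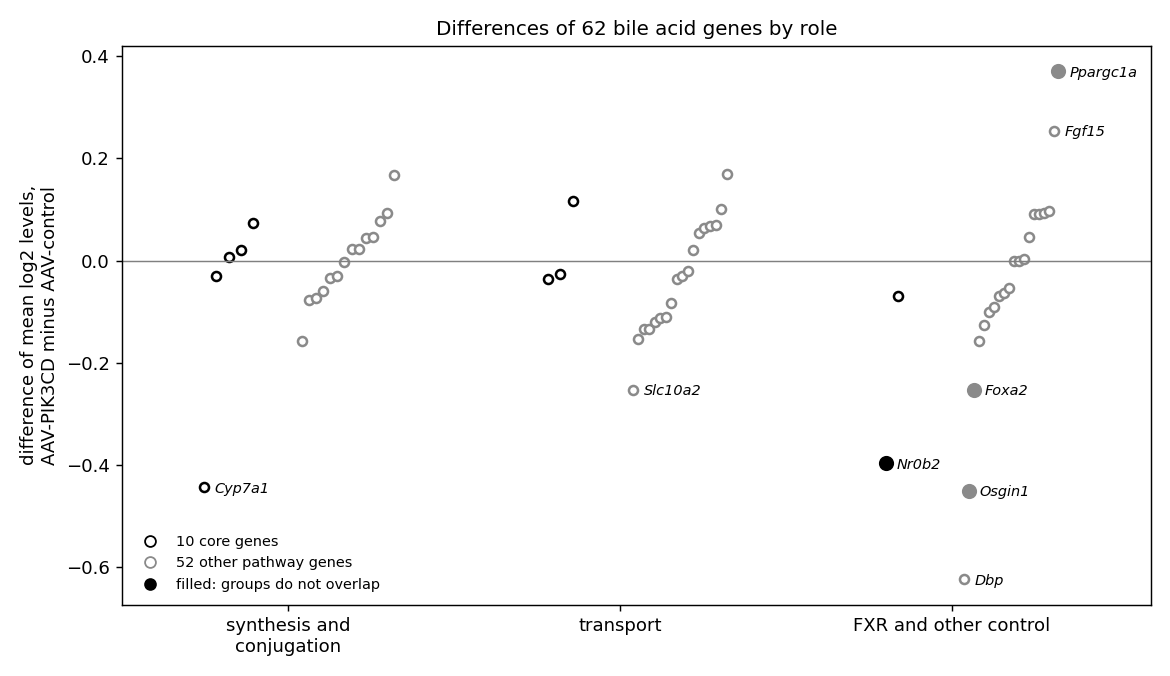
Difference of mean log2 levels, AAV-PIK3CD minus AAV-control, for the 10 core genes (black) and the 52 other measured genes of the pathway (grey), by role; filled points are genes whose groups do not overlap. Most points lie within 0.2 log2 units of 0, and the filled points, *Nr0b2*, *Osgin1* and *Foxa2* below 0 and *Ppargc1a* above it, are all genes of control. They are 3 lower and 1 higher of 62 genes, beside 9.44% of all probe sets without overlap, and none passed rank products or limma.

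The 10 genes differed among themselves in how far single arrays of a group stood apart. The within-group SD was 0.39 for *Cyp7a1* (the 97.6 percentile of all probe sets), 0.24 for *Cyp8b1* (79.6), 0.24 for *Nr0b2* (78.4) and 0.21 for *Abcb11* (69.9), against 0.07 for *Cyp27a1* (4.9) and 0.05 for *Nr1h4*. The receptor gene *Nr1h4* thus varied least of the 10 between arrays of a group, and *Cyp7a1* most. The median over the 10 was 0.17, as over all probe sets. All 10 genes were read well above the array median, between the 92.9 and the 99.4 percentile of all probe sets in level. Arrays 51 and 52 each held the lowest value for 3 of the 10 genes. Array 50 held the highest for 4, among them *Baat*, where array 51 equalled it.

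**Figure D4:**
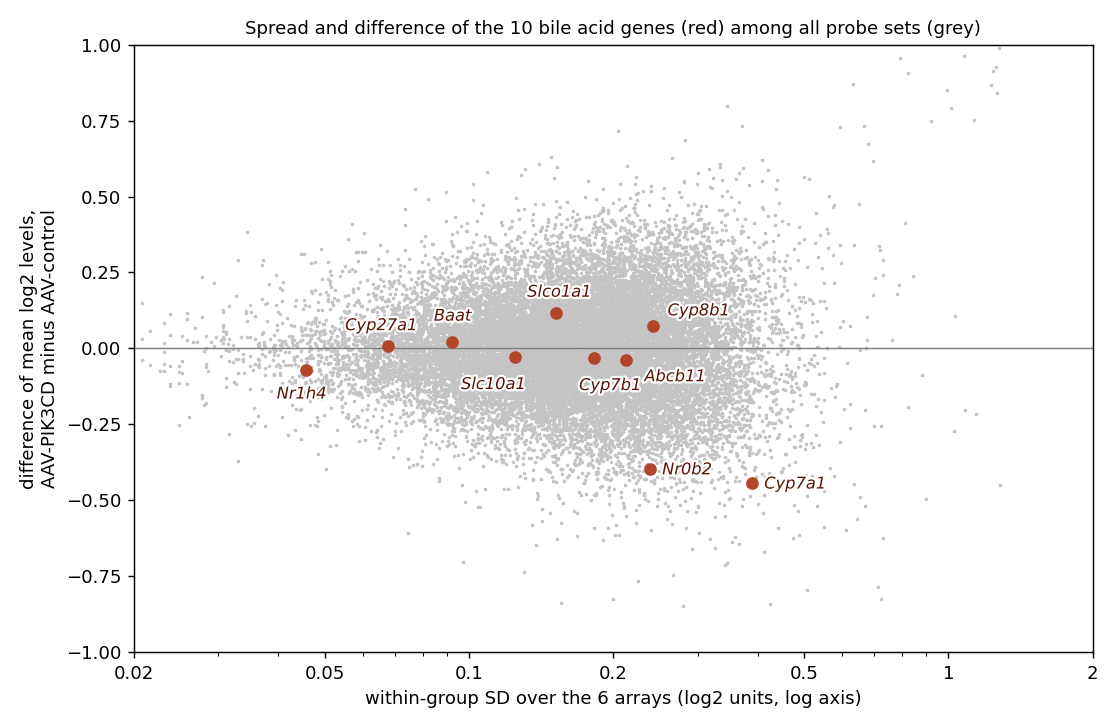
Within-group SD (x axis, log2 units, drawn on a log axis) and difference of mean log2 levels, AAV-PIK3CD minus AAV-control (y axis), for the 10 genes (red) and all other probe sets (grey); 42 probe sets lie outside the plotted range. *Cyp7a1* combines a wide spread (0.39) with its difference of -0.44, *Nr0b2* lies towards the lower edge of the cloud, and the other 8 genes lie between -0.07 and 0.12.

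*Cyp7b1* and *Slco1a1* are expressed more in male than in female mouse liver under the pulses of growth hormone, so that 11 other male-biased genes were read beside them. All 11 exceeded the array median, and 0 passed rank products or limma. The mean was higher in AAV-PIK3CD for 2 of them and lower for 9. Their differences lay between -0.12 and 0.12, as did those of *Cyp7b1* and *Slco1a1*. The largest were those of *Cyp4a12a* (-0.12, SE 0.12), *Selenbp2* (0.12, SE 0.12) and, equal in size, *Mup20* (0.12, SE 0.12) and *Nudt7* (-0.12, SE 0.12). Of 11 measured female-biased genes 4 exceeded the array median, and 0 passed. *Cyp4a10* differed by 0.31 (SE 0.31), *Acot3* by -0.27 (SE 0.16) and *Sult3a1* by -0.22 (SE 0.16), each by less than 2 SE.

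For the 3 genes with the widest range over the arrays, the genes with the most similar profile were sought among all genes with a symbol, by the root mean square distance of the 6 centred log2 levels. Those nearest to *Cyp7a1* were *Srp68*, a subunit of the signal recognition particle (distance 0.11), *Rnf185*, a ubiquitin ligase of the endoplasmic reticulum (0.12), and *Adat2*, a tRNA deaminase (0.13). *Srp68* read 7.57, 6.91 and 7.24 in AAV-PIK3CD and 7.59, 7.52 and 7.90 in AAV-control, with the dip in array 52 that *Cyp7a1* has. Nearest to *Nr0b2* were *Lrrc8c* (0.06), *Nif3l1* (0.06) and *Noc2l* (0.06), and nearest to *Cyp8b1* were *Btbd35f28* (0.03), *Rps6kl1* (0.05) and the tetraspanin *Cd82* (0.05). None of these 9 genes is on the bile acid lists used here, which hold only 62 measured genes of the 19505 with a symbol.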

How the data were processed

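Clariom S mouse arrays were hybridised with biotin-labelled probes made from 100 ng of total RNA. The deposited values are log2 levels that the authors made by RMA (background correction, quantile normalization and summary per probe set), given to 2 decimals. The software version, summary level and genome build are not given in the sources used here. RMA makes the arrays alike in distribution, so a shift shared by most genes cannot be seen. Symbols came from the platform annotation, which named 19572 of 22206 probe sets, and all probe sets were tested without a filter. Where several shared a symbol, the one with the highest mean stood for the gene.

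Groups came from the sample titles. The main test was rank products, named by the study's methods (9 pairs of arrays, 1000 seeded shuffles of gene order within each array, 2-sided, Benjamini-Hochberg over all probe sets, threshold 0.05). Because its chance level is shared by all genes, genes with a wide spread pass more easily. limma 3.58.1 in R 4.3.3 (lmFit, eBayes) gave standard errors, 95% intervals, which are not adjusted for the number of genes, and a second test. limma p-values set the group difference against the spread between these samples within groups. Nothing says that the samples were separate mice, so this need not be the spread between mice. The p-values of rank products set a gene against the other genes of the same arrays. Both tests were tested on simulated data. Other steps used Python 3.11.15 with pandas 2.3.3, scipy 1.17.1 and numpy 2.4.6; plots used matplotlib 3.10.9.

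The members and lists were chosen with earlier results of these data known. Named pathway genes were, in each role, the 4 with the largest difference and the 2 with the smallest limma p; of sex-biased genes, the 3 with the largest difference. Alternatives were limma, the methods' t-test, quantile normalization, median centring, a floor on the mean level at the 25% or 50% quantile, a single probe set for each symbol, and omission of each array.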

Additional observations from a re-analysis of the deposited data

How the results depend on the processing

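Over the 13 alternatives, 0 of the 10 genes and 0 of the 52 other pathway genes passed; the lowest adjusted p of any of the 10 was 0.0912, for *Cyp7a1* by rank products without array 51. By the methods' t-test 0 of the 10 passed after Benjamini-Hochberg, and 0 had an unadjusted p under 0.05. *Cyp7a1*, *Nr0b2*, *Nr1h4* and *Slco1a1* kept their direction in every alternative. The other 6 turned in at least 1, all with differences near 0. Median centring gave -0.0267 for *Cyp27a1* and -0.0133 for *Baat*, and quantile normalization gave 0.0017 for *Cyp7b1* and 0.0158 for *Abcb11*. Omitting 1 array at a time gave differences of -0.0733 to 0.21 for *Cyp8b1*, -0.0350 to 0.0450 for *Cyp27a1*, -0.11 to 0.10 for *Cyp7b1*, -0.0417 to 0.0633 for *Baat*, -0.11 to 0.0567 for *Slc10a1*, -0.13 to 0.11 for *Abcb11* and -0.41 to 0.10 for *Slc51b*. *Nr0b2* differed by -0.32 after quantile normalization and by -0.43 after median centring. *Pik3cd* differed by 0.33 to 0.52 when 1 array was omitted. The 9 rank products calls over all probe sets became 5 without the dimmest 25% of probe sets, 2 without the dimmest 50%, 0 by limma (1127 at an unadjusted p under 0.05), 0 by the t-test (1059) and 3 to 17 when 1 array was omitted; the cause was not tested. No member had a second probe set to try. No paired analysis was possible because the groups share no replicate numbers.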
